A study of Mus musculus with 2 samples.

Results

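Genes that encode neuropeptide precursors were taken by symbol, 10 of the 32285 genes in the count matrices: *Sst*, *Vip*, *Npy*, *Cck*, *Penk*, *Pdyn*, *Tac1*, *Tac2*, *Crh* and *Nts*. They were followed across interneuron and excitatory subtypes of the mouse hippocampus by single-nucleus RNA sequencing (10x Genomics 3′ chemistry), which counts unique molecular identifiers (UMIs), 1 per captured RNA molecule, for each gene in each nucleus. One group was PS19, mice with a transgene for human tau carrying the P301S mutation and with intact *Zbp1*, and the other was PZKO, mice with the same transgene and no functional *Zbp1*. All mice were males aged 9 months, both groups carry the tau transgene, and no group without it was analysed here. The *Zbp1* knockout came from a *Zbp1*-null line, not from a deletion in 1 cell type. Each genotype is 1 library, labelled as pooled hippocampi, in which nuclei carry no label of the animal, so genotypes were compared without a test and every interval covers counting error only.

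Neuropeptides are cut from larger precursors in the secretory pathway, packed into dense-core vesicles and released during sustained firing, and they act on G-protein-coupled receptors. In the hippocampus their genes sort interneurons into classes: *Sst* marks dendrite-targeting cells, *Vip* marks cells that mostly inhibit other interneurons, *Npy* marks neurogliaform and ivy cells and part of the *Sst* cells, and *Cck* marks a class of basket cells. Granule cells of the dentate gyrus make dynorphin from *Pdyn* and pyramidal cells transcribe *Cck*. Peptide genes also respond to neuronal activity, in part through cAMP response elements in their promoters.

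All 10 genes are short. In GENCODE M21 on GRCm38, the build of the files (mm10), they span from 1386 bases for *Sst* (chr16:23889573-23890958, minus strand) and 1996 bases for *Crh* (chr3:19693401-19695396, minus strand) to 13280 bases for *Pdyn* (chr2:129686565-129699844, minus strand), and 8 of the 10 span under 10 kb. The 250 bases before the RefSeq start (GRCm38.p6) were given for 8 of them, in 9 entries. *Penk* and *Crh* have no entry there. The cAMP response element TGACGTCA, which reads the same on both strands, stood in 1 of these 8 genes, *Sst*, and in 508 of all 32851 promoter entries (1.55%). Its half-site TGACG, searched on both strands and overlapping the full element in *Sst*, stood in 5 of the 8 genes and in 17.8% of all entries. The stretches around each match are shown because the half-site is shared by several members and absent from others. They run 5′ to 3′ on the gene's strand. Capitals mark the full element in *Sst* and only the half-site in the other genes.

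Sst: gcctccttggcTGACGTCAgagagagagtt
Vip: gggatcactactgTGACGtctttcggggag
Cck: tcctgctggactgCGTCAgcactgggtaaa
Tac1, distal: ttccctaaaattgCGTCAtttcgaacacaa
Tac1, proximal: ggctctacaggctCGTCAcgcctgagataa
Nts: aattagggaagatCGTCActttccatcaag

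The *Sst* element begins 48 bases before the start (chr16:23890874-23890903 for the stretch), the *Vip* half-site 79 bases before it (chr10:5639126-5639155) and the *Cck* half-site 47 bases before it (chr9:121495725-121495754). Those of *Tac1* begin 197 and 43 bases before the start (chr6:7554851-7554880 and chr6:7555005-7555034) and that of *Nts* 166 bases before it (chr10:102490568-102490597). The *Sst* and *Tac1* stretches overlap GENCODE exons, and those of *Vip*, *Cck* and *Nts* do not. *Npy*, *Pdyn* and *Tac2* had no match in the window, which says only that these letters are not there.

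The PS19 library held 11469 nuclei and 116488513 UMIs, and the PZKO library 10920 nuclei and 171167884 UMIs. After filtering, 9590 PS19 and 9307 PZKO nuclei remained, with medians of 5849 and 9022 UMIs, and 47 barcodes occurred in both libraries. *Zbp1* had 92 UMIs in PS19 and 38 in PZKO, a log2 ratio of CPM (UMIs of a gene per 1000000 UMIs of the group) of -1.87 (95% interval, -2.46 to -1.31), and in interneurons 5 and 0. Interneurons, taken as inhibitory clusters with *Lhx6* (the medial ganglionic eminence lineage) or *Adarb2* (the caudal lineage), numbered 400 and 448, with medians of 20079.5 and 28650 UMIs. Clusters with *Adarb2* that were mixed with glial genes (I13) or had few UMIs (I19) were left out. Marker genes other than the 10 members, which also took no part in the clustering, named somatostatin-like (58 and 90 nuclei), parvalbumin-like (77 and 102), neurogliaform- or ivy-like (73 and 71), cholecystokinin-basket-like (50 and 32) and VIP-like (59 and 69) interneurons, and among excitatory neurons dentate-granule-like (1008 and 509), CA1-like (386 and 410), CA2-like (25 and 19), CA3-like (198 and 179), subiculum-like (48 and 64) and cortical groups, such as superficial-layer-like nuclei (194 and 375). The labelled hippocampus therefore came with neighbouring tissue: besides cortical layers there were thalamus- or habenula-like clusters and a striatal-projection-like cluster of 23 PS19 nuclei and 1 PZKO nucleus. In that cluster *Penk* reached 336 CPM in PS19, so that over all inhibitory nuclei *Penk* was 24.7 CPM in PS19 and 7.75 CPM in PZKO, against 12.5 and 8.08 CPM in interneurons. The members are therefore read in interneurons below.

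Free RNA set the floor. Oligodendrocyte-like nuclei, which are not known to make these peptides, held 0.115 *Sst* UMIs per nucleus in PS19 and 0.128 in PZKO, and 0.171 and 0.167 for *Cck*. For *Npy* the values were 0.0706 and 0.0479, and for *Pdyn* 0.00271 and 0.00355. Microglia-like nuclei, from another lineage, gave much the same counts, with 0.10 and 0.121 *Sst* UMIs per nucleus. A value near these in a neuron is background, and levels were therefore read as UMIs per nucleus beside CPM, because a nucleus with more RNA of its own dilutes the same free RNA to a lower CPM.

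**Figure D1:**
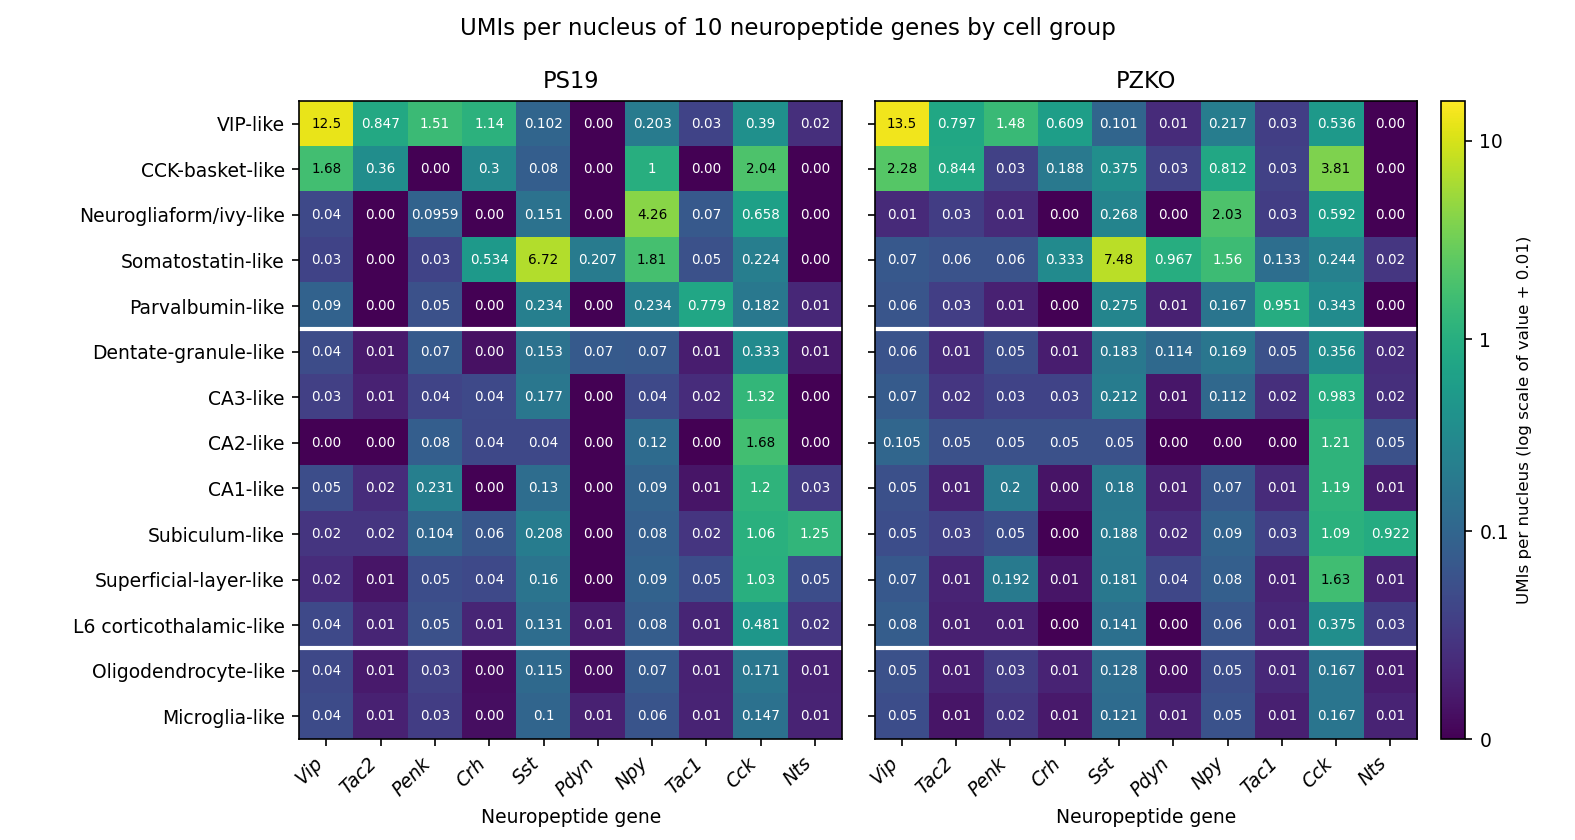
UMIs per nucleus (the number in each cell, colour on a log scale of the value plus 0.01) of the 10 genes, in columns, by cell group, in rows, for the PS19 library and the PZKO library. Interneuron groups are above the first white line, excitatory groups are between the lines, and oligodendrocyte- and microglia-like nuclei, which show the free RNA, are below the second. *Vip* stands at 12.5 and 13.5 in VIP-like nuclei and *Sst* at 6.72 and 7.48 in somatostatin-like nuclei, each far above its free RNA.

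Each gene stood highest in 1 or a few groups. *Vip*, the vasoactive intestinal peptide, was highest in VIP-like nuclei at 877 CPM in PS19 and 634 CPM in PZKO. The next group, cholecystokinin-basket-like nuclei, stood at 66.8 and 56.9 CPM, of which the 4 highest nuclei held 94% and 93.2%. *Sst*, the release-inhibiting peptide somatostatin, stood at 327 and 247 CPM in somatostatin-like nuclei. Every other named interneuron group was below 11 CPM, and at 0.08 to 0.375 UMIs per nucleus these groups ranged from below the free RNA of *Sst* to higher than it.

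*Npy*, which encodes neuropeptide Y, was spread more widely. It stood at 229 CPM in PS19 and 68.6 CPM in PZKO in neurogliaform- or ivy-like nuclei, at 88.0 and 51.3 CPM in somatostatin-like nuclei and at 39.8 and 20.3 CPM in cholecystokinin-basket-like nuclei. In PS19 the 3 intervals did not overlap, whereas in PZKO those of the first 2 did (57.9 to 80.8 and 43.2 to 60.6 CPM). *Cck*, the precursor of cholecystokinin, led among the named groups in cholecystokinin-basket-like nuclei, at 81.1 and 95 CPM. CA1-like nuclei followed in PS19 at 48.1 CPM, CA2-like nuclei stood at 40.1 CPM and superficial-layer-like nuclei at 41.9 CPM, 3 neighbours whose intervals overlap.

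The remaining members differed in how widely they were found. *Tac2*, the precursor of neurokinin B, and *Penk*, the precursor of the enkephalins, were highest among interneurons in VIP-like nuclei, at 59.3 and 37.5 CPM for *Tac2* and 106 and 69.5 CPM for *Penk*. *Crh*, the corticotropin-releasing hormone, stood at 79.5 and 28.6 CPM there and at 26.0 and 11 CPM in somatostatin-like nuclei. *Tac1*, the precursor of substance P and neurokinin A, led among the named interneuron groups in parvalbumin-like nuclei, at 35.1 and 28.4 CPM. *Nts*, which encodes neurotensin, led in subiculum-like nuclei at 34.8 and 18.9 CPM. *Nts* was all but missing from interneurons, with 2 UMIs in each library. *Pdyn*, the precursor of the dynorphins, was found in somatostatin-like nuclei at 10.1 and 31.9 CPM and in dentate-granule-like nuclei at 4.71 and 5.20 CPM. The granule level was low, but at 0.0714 and 0.114 UMIs per nucleus it was far above the *Pdyn* free RNA, while CA1-like nuclei held 0 and 4 *Pdyn* UMIs in all.

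Shares of nuclei with a UMI were compared after thinning each nucleus to 2000 UMIs. A *Vip* UMI was then seen in 57.6% of VIP-like nuclei in PS19 and 53.6% in PZKO (79.7% and 72.5% without thinning), against 2.20% and 2.58% of oligodendrocyte-like nuclei. For *Sst* in somatostatin-like nuclei the shares were 46.6% (exact binomial 95% interval, 33.3 to 60.1) and 32.2% (22.8 to 42.9), against 5.69% and 5.51% in oligodendrocyte-like nuclei. The intervals of the genotypes overlapped for both genes. Thinned to 10000 UMIs, which left out 1 and 0 somatostatin-like nuclei, *Sst* was seen in 79.0% and 75.6% of somatostatin-like nuclei. *Cck* in CA1-like nuclei was at 11.4% and 7.07% at 2000 UMIs, beside 9.18% and 7.61% of oligodendrocyte-like nuclei, with overlapping intervals, so the share at that depth did not separate pyramidal *Cck* from background. In UMIs per nucleus they stood apart, at 1.2 and 1.19 UMIs per nucleus against 0.171 and 0.167.

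**Figure D2:**
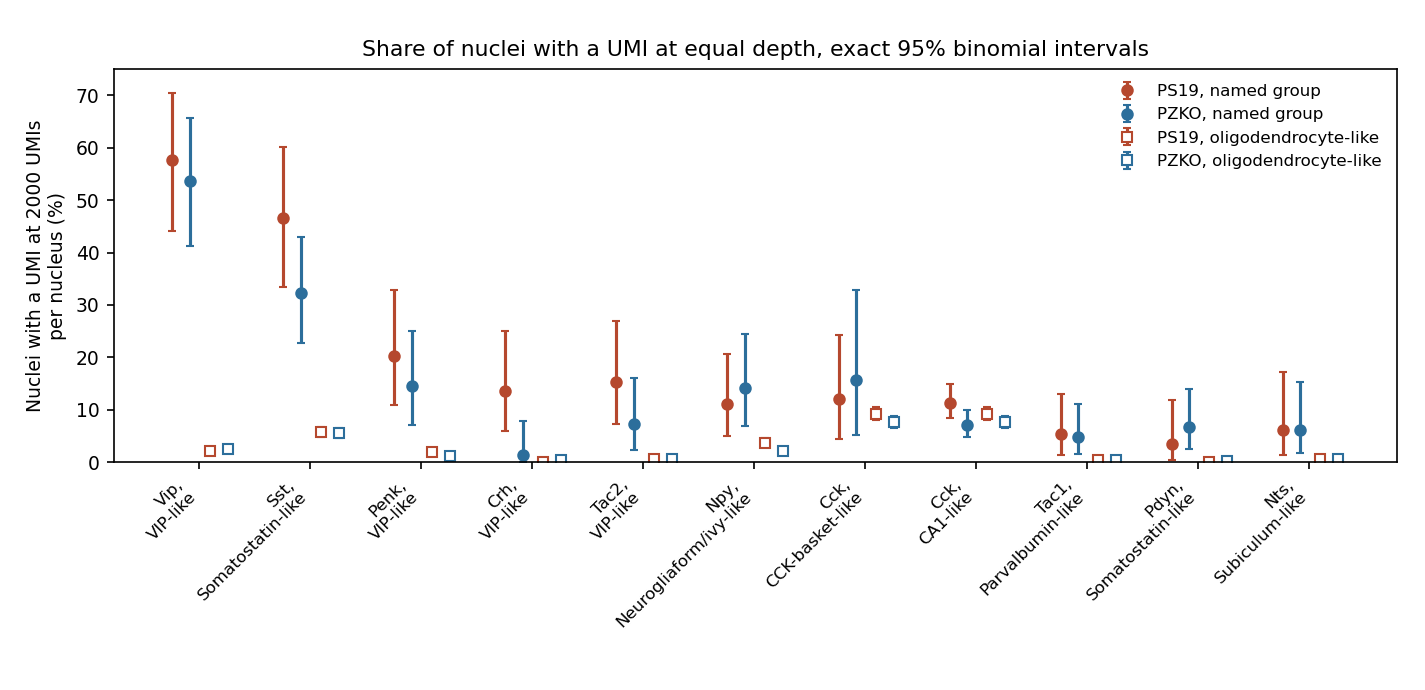
Percent of nuclei with at least 1 UMI after each nucleus was thinned to 2000 UMIs, with exact 95% binomial intervals, for 11 pairs of gene and cell group in PS19 and PZKO (filled circles) and for the same gene in oligodendrocyte-like nuclei (open squares). *Vip* and *Sst* stand far above the squares, and *Cck* in CA1-like nuclei does not.

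Across interneurons, 9 of the 10 genes had at least 50 UMIs, and *Nts* did not. Of these, 8 had a lower CPM in PZKO than in PS19, 6 of them with an interval below 0, and 1, *Pdyn*, was higher, with an interval above 0. Of all genes tested, 18.8% had an interval below 0 and 12.6% above. Intervals narrow as counts rise, so such shares also depend on the UMIs of the genes. A change past 1.5-fold downwards was seen for 3 (*Npy*, *Penk* and *Crh*), where 5.94% of all 13145 genes with at least 50 UMIs were lower by that much, and upwards for *Pdyn*, where 2.03% of genes were higher. The median log2 ratio was -0.42 over the 9 genes and -0.05 over all genes. Gene length moved with this: the 2810 tested genes spanning under 10 kb had a median log2 ratio of -0.27, with 16.6% lower past 1.5-fold, and the 2276 genes over 100 kb had one of 0.10. The part of gene length in the values of these genes was not tested. Scaled to the UMIs of genes under 10 kb, *Sst* differed by -0.08, *Vip* by -0.11, *Npy* by -1.04 and *Cck* by 0.07. In UMIs per nucleus, where PZKO interneurons held more UMIs in all, *Vip* stood at 2.10 and 2.28 UMIs per interneuron and *Sst* at 1.86 and 2.07, while *Npy* stood at 1.65 and 0.940 and *Crh* at 0.315 and 0.199.

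**Figure D3:**
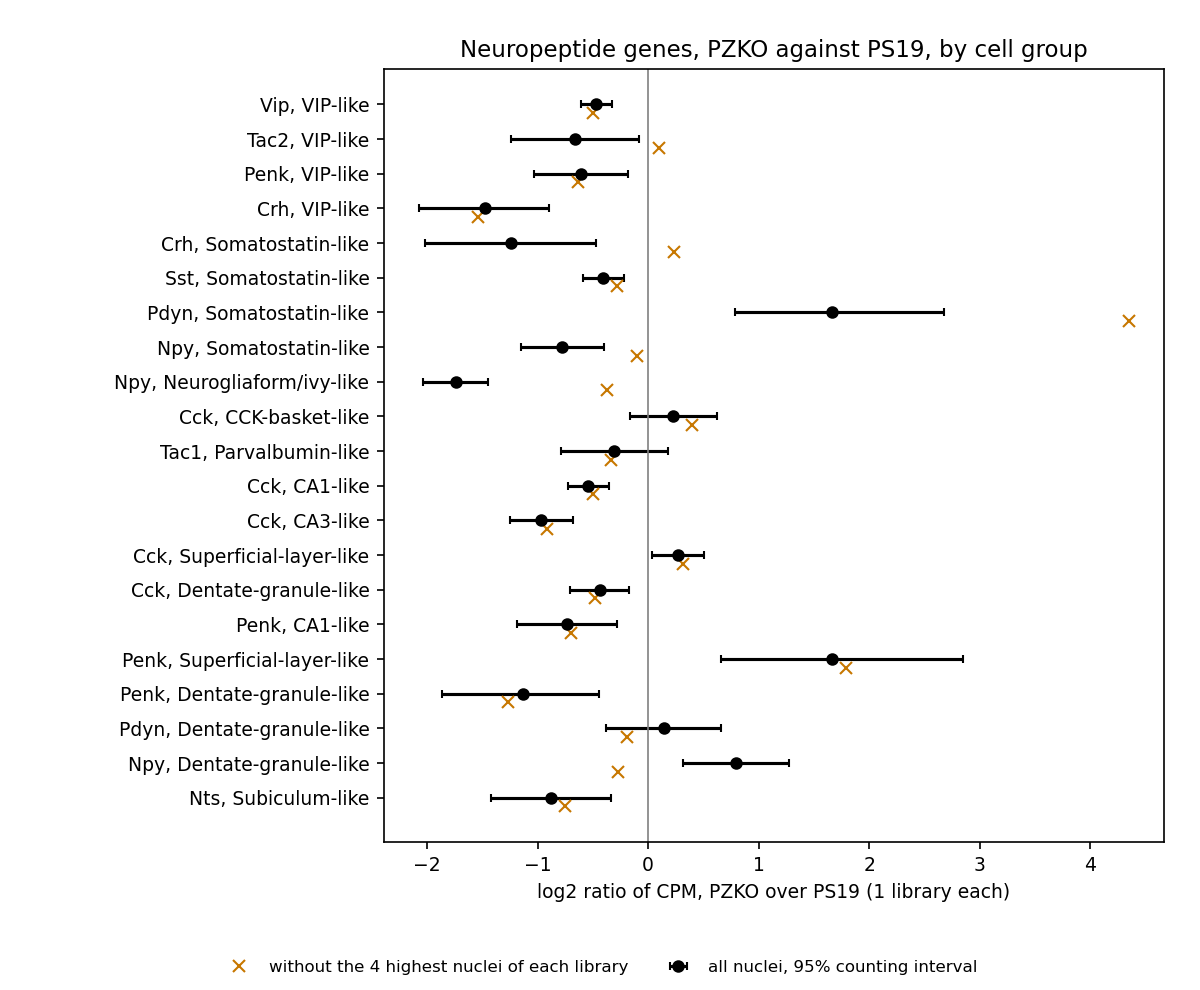
Log2 ratio of CPM, PZKO over PS19, for 21 pairs of gene and cell group, from 1 library each. Black points are sums over all nuclei with exact conditional 95% intervals that cover counting error, and orange crosses are the same ratio without the 4 nuclei of each library that hold the most UMIs of the gene. *Vip*, *Penk* and *Crh* in VIP-like nuclei keep their place without those nuclei, and *Npy* in neurogliaform- or ivy-like nuclei moves from -1.74 to -0.37.

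In VIP-like nuclei *Vip*, *Penk*, *Tac2* and *Crh* had a lower CPM in PZKO. *Vip* itself differed by -0.47 in log2 (-0.61 to -0.33), from 739 UMIs in 59 PS19 nuclei and 931 UMIs in 69 PZKO nuclei. *Penk* differed by -0.60 (-1.03 to -0.18) and *Tac2* by -0.66 (-1.24 to -0.08). For *Tac2* 1 PS19 nucleus held 25 of the 50 UMIs, and without the 4 highest nuclei of each library the ratio was 0.10. *Crh* differed most, by -1.48 (-2.07 to -0.90), with 67 UMIs in 20 positive PS19 nuclei and 42 UMIs in 19 positive PZKO nuclei, and it stayed between -1.58 and -1.24 under 14 other settings. In this group 6.86% of 6341 genes were lower and 4.48% higher past 1.5-fold, and 20.1% of those spanning under 10 kb were lower. Thinned to 2000 UMIs, 13.6% (6.04 to 25.0) and 1.45% (0.0367 to 7.81) of nuclei had a *Crh* UMI. Thinned to 10000 UMIs, which kept 46 of 59 PS19 and 66 of 69 PZKO nuclei, the shares were 26.1% (14.3 to 41.1) and 22.7% (13.3 to 34.7). The intervals overlapped at both depths. The free RNA of *Crh*, in oligodendrocyte-like nuclei, was higher in PZKO, with 7 and 24 UMIs at 0.75 and 2.29 CPM (1.61, 0.35 to 3.07). That of *Vip* differed by 0.02 (-0.38 to 0.41), whereas that of *Npy*, *Cck* and *Penk*, given below, was lower.

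A small cluster held 28 of the 67 PS19 *Crh* UMIs. Cluster I17, 13 PS19 and 12 PZKO nuclei led by *Thsd7b*, had *Crh* at 137 CPM in PS19 and 11.9 CPM in PZKO (-3.53, -5.90 to -1.84), from 8 positive nuclei and, with 3 UMIs, 1 positive nucleus. Its name rests on 3 of 5 VIP-like markers. Without thinning, only 6 of the 13 PS19 and 3 of the 12 PZKO nuclei had a *Vip* UMI. The other VIP-like cluster, I0, led by *Vip*, *Sema5b* and *Grpr*, stood at 61.1 and 32.1 CPM, a log2 ratio of -0.93 (-1.61 to -0.25). *Vip* was also found outside the interneurons counted here: in cluster I13, a mixture of inhibitory and oligodendrocyte genes led by *Prr5l*, *Neat1* and *St18*, 6 of 24 PS19 nuclei held 159 *Vip* UMIs and the 21 PZKO nuclei held 0. These nuclei are not in the interneuron or VIP-like sums.

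Within VIP-like nuclei *Penk*, *Crh* and *Tac2* were found both with and without *Vip*. Without thinning, of 47 PS19 nuclei with a *Vip* UMI, 55.3% had a *Penk* UMI, 36.2% a *Crh* UMI and 25.5% a *Tac2* UMI. Of 50 such PZKO nuclei the shares were 46.0%, 30% and 30%. Of 12 PS19 nuclei without a *Vip* UMI, 6 had a *Penk*, 3 a *Crh* and 3 a *Tac2* UMI. In PZKO it was 10, 4 and 3 of 19. Thinned to 10000 UMIs, the counts with *Vip* were 17, 10 and 5 of 37 in PS19 and 15, 12 and 11 of 46 in PZKO. Those without *Vip* were 3, 2 and 1 of 9 and 6, 3 and 1 of 20. A pairing with *Vip* was not tested. A *Tac2* UMI was found in 3 of 32 PS19 nuclei with *Penk* and in 12 of 27 without it, and in PZKO in 5 of 33 and 13 of 36. Thinned to 10000 UMIs, the counts were 0 of 20 and 6 of 26 in PS19 and 4 of 21 and 8 of 45 in PZKO, so in PZKO the shares were close at equal depth. *Tac2* was the gene nearest to *Vip* across the named subtypes, with r = 0.98 over 28 points (14 named subtypes in 2 libraries, log2 of CPM plus 10). *Gm39185* at 0.98 and *Itih5* at 0.92 followed. Unnamed clusters were left out of the points of every such correlation, here and below. Among those left out was I11, the neuronal cluster with the highest *Tac2*.

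In somatostatin-like nuclei *Sst* differed by -0.41 (-0.59 to -0.22), from 390 UMIs in 58 PS19 nuclei and 673 UMIs in 90 PZKO nuclei, while 7.51% of 8350 genes were lower past 1.5-fold and the median of the 1000 genes under 10 kb was -0.31. In UMIs per nucleus *Sst* was 6.72 and 7.48. The larger of its clusters, I3, led by *Lypd6*, *Sst* and *Mgat4c*, held *Sst* at 376 and 286 CPM (-0.39, -0.61 to -0.18). The other, I12, led by *Lama4*, *Unc13c* and *Grin3a*, held 215 and 196 CPM (-0.13, -0.51 to 0.26). An unnamed *Lhx6* cluster led by *Pappa* and *Zfpm2*, I2, differed more, with 212 and 96.7 CPM (-1.13, -1.41 to -0.85), and 1 of its 57 PS19 nuclei held 74 of the 304 UMIs. *Npy* in I2 was 113 and 40.7 CPM, with 77 of 163 PS19 UMIs in 1 nucleus.

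*Pdyn* ran the other way. In I12 it was found in 2 of 16 PS19 nuclei, with 1 UMI each, and in 21 of 40 PZKO nuclei, with 87 UMIs, the highest nucleus holding 14. The shares were 12.5% (1.55 to 38.3) and 52.5% (36.1 to 68.5), and thinned to 10000 UMIs they were 6.67% (0.169 to 31.9) and 35.0% (20.6 to 51.7), intervals that overlap. The log2 ratio in I12 was 3.74 (1.84 to 6.81). In I3 the order turned, with 10 UMIs in 3 PS19 nuclei, 8 of them in 1 nucleus, and 0 in 50 PZKO nuclei. Over somatostatin-like nuclei *Pdyn* differed by 1.67 (0.79 to 2.67), where 4.31% of genes were higher past 1.5-fold. The I12 share of somatostatin-like nuclei was itself 16 of 58 in PS19 and 40 of 90 in PZKO. Across subtypes the gene nearest to *Pdyn* was *Crhr2*, a receptor for urocortins, at r = 0.95. *Sst* followed at 0.87 and *S1pr3* at 0.80. *Crhr2* had 9 UMIs in PS19 and 50 in PZKO interneurons (1.74, 0.70 to 2.95), where 2.03% of genes were higher past 1.5-fold. In all inhibitory nuclei it had 63 and 119 UMIs (0.12, -0.33 to 0.59). The correlation was taken over points of both libraries, so the *Crhr2* ratio is not separate support for that of *Pdyn*.

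*Crh* in somatostatin-like nuclei lay in I3, with 31 UMIs in 8 of 42 PS19 nuclei and 30 UMIs in 12 of 50 PZKO nuclei, and I12 had none in either library. Its ratio in the class, -1.24 (-2.01 to -0.47), became 0.23 without the 4 highest nuclei of each library, which held 83.9% of the PS19 UMIs.

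*Npy* had the largest downward difference of the members in interneurons, at -1.38 (-1.56 to -1.2), with 659 UMIs in PS19 and 421 in PZKO. Few nuclei held much of it. In cluster I7, the *Adarb2* neurogliaform- or ivy-like nuclei led by *Kit*, *Egfr* and *Ndnf*, *Npy* was 497 CPM in PS19 and 115 CPM in PZKO (-2.11, -2.44 to -1.80), but 4 of the 34 PS19 nuclei held 110, 65, 32 and 26 of the 286 UMIs, while no PZKO nucleus held more than 14. The share of nuclei with a UMI did not follow the level: 22 of 34 in PS19 and 26 of 36 in PZKO. After thinning to 10000 UMIs, which leaves out shallower nuclei, the shares were 51.9% and 50%. The medians were 2 and 1.5 UMIs. Over all neurogliaform- or ivy-like nuclei the ratio was -1.74 (-2.04 to -1.45) and -0.37 without the 4 highest nuclei of each library, in a group where 9.56% of 7898 genes were lower and 3.8% higher past 1.5-fold, and 36.8% of the 891 genes under 10 kb were lower. Over interneurons it was -0.78 without the 4 highest nuclei.

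The *Lhx6* part of the group, I6, led by *Hapln1* and *Hcrtr2*, had *Npy* at 32.0 and 27.1 CPM (-0.24, -1.06 to 0.59). In somatostatin-like nuclei *Npy* differed by -0.78 (-1.15 to -0.40), by -0.10 without the 4 highest nuclei and by 0.04 with doublets kept. In I12 it was 163 and 54.1 CPM (-1.59, -2.12 to -1.05) and in I3 55.4 and 49.3 CPM (-0.17, -0.72 to 0.39). In cholecystokinin-basket-like nuclei, where 6.98% of genes were lower and 5.21% higher past 1.5-fold, the ratio was -0.97 (-1.72 to -0.26). The free RNA moved the same way, with *Npy* in oligodendrocyte-like nuclei at 19.6 and 10.3 CPM (-0.92, -1.28 to -0.57), 19 of the 182 PS19 UMIs there being in 1 nucleus. Over subtypes the genes nearest to *Npy* were *Pld5*, *Reln* and *Gm15261*, at r = 0.88 each.

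**Figure D4:**
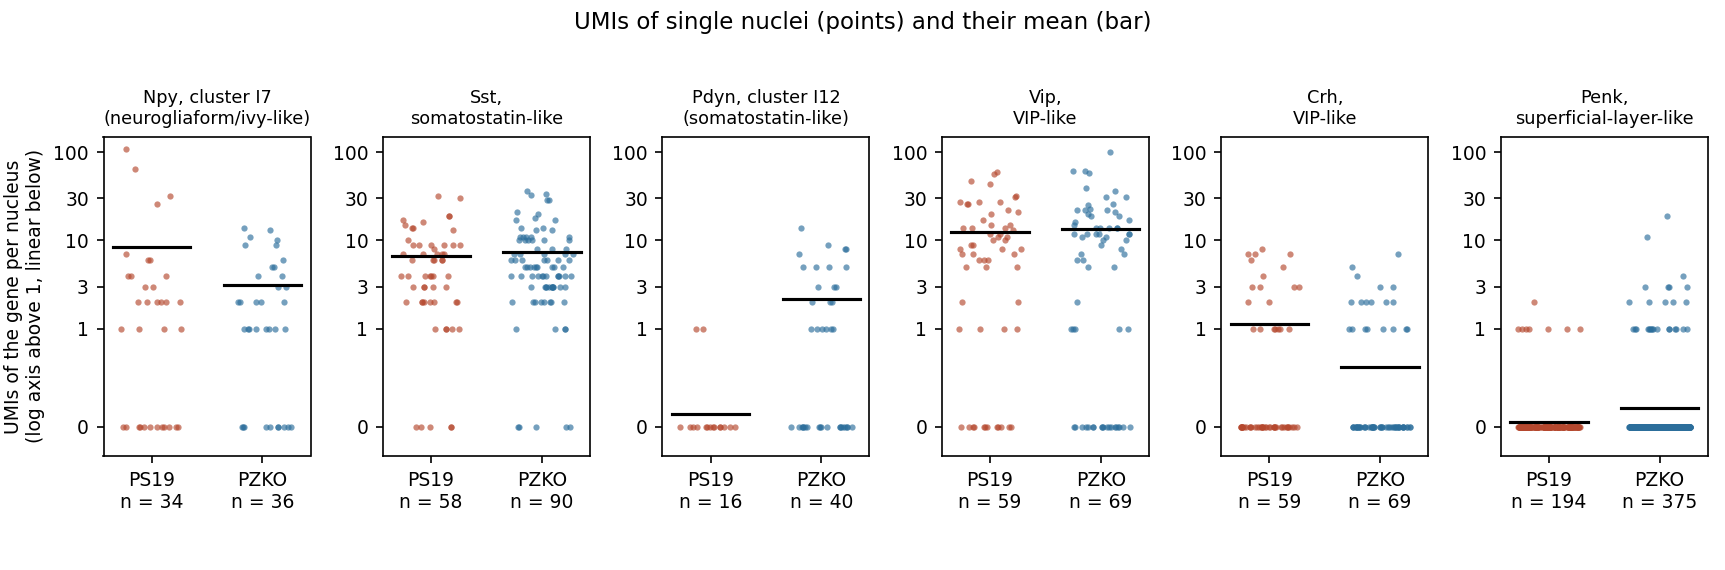
UMIs of 1 gene in each nucleus (points, on an axis that is logarithmic above 1 and linear below) and their mean (bar), in PS19 and PZKO, for 6 pairs of gene and cell group. In cluster I7 4 PS19 nuclei with 26 to 110 *Npy* UMIs lie above every PZKO nucleus, whereas the points of *Sst* and of *Vip* overlap between the libraries.

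*Tac1* in parvalbumin-like nuclei differed by -0.31 (-0.79 to 0.18), which was within counting error, in a group where 5.90% of genes were lower and 3.81% higher past 1.5-fold, with 60 UMIs in 26 of 77 PS19 nuclei and 97 UMIs in 32 of 102 PZKO nuclei. By cluster, I1, led by *Creb5* and *Slit2*, stood at 46.5 and 56.8 CPM (0.29, -0.23 to 0.83), which was within counting error. I5, led by *6330411D24Rik* and *Eya4*, stood at 16.8 and 6.23 CPM (-1.43, -2.74 to -0.11) from 11 and 12 UMIs, and its interval overlapped that of I1. In dentate-granule-like nuclei a higher *Tac1* in PZKO, 27 against 8 UMIs, lay in 1 nucleus with 24 UMIs. *Adamtsl5*, *Gm26633* and *Mybpc1* were nearest to *Tac1* in pattern (r = 0.95, 0.95 and 0.94). *Tac1* and *Tac2* met in I11, an excitatory cluster led by *D130079A08Rik* that holds habenula markers, where *Tac2* was 112 and 110 CPM (-0.02, -0.55 to 0.53), the highest *Tac2* of any neuronal cluster, and *Tac1* 42.0 and 26.9 CPM.

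*Cck* was found in both interneurons and pyramidal cells. In cholecystokinin-basket-like nuclei, whose markers (*Cnr1*, *Sncg*, *Slc17a8*) do not include it, *Cck* differed by 0.23 (-0.16 to 0.62), from 102 UMIs in 28 of 50 PS19 nuclei and 122 UMIs in 29 of 32 PZKO nuclei. These counts are without thinning, and the PZKO nuclei were deeper. Thinned to 2000 UMIs, 6 of 50 and 5 of 32 nuclei had a *Cck* UMI, and thinned to 10000 UMIs 19 of 47 and 18 of 32. In excitatory neurons as a whole it was 37.9 and 30.5 CPM, a difference of -0.31 (-0.39 to -0.23), where 6.34% of 17798 genes were lower and 3.17% higher past 1.5-fold and the genes under 10 kb had a median of -0.24. In oligodendrocyte-like nuclei, the free RNA, *Cck* stood at a higher CPM and was also lower in PZKO, at 47.4 and 35.9 CPM (-0.40, -0.60 to -0.20). The part of free RNA in the excitatory difference was not tested. Scaled to the UMIs of genes under 10 kb the ratio was 0.01 in excitatory neurons. By group it was -0.54 (-0.73 to -0.35) in CA1-like, -0.96 (-1.25 to -0.68) in CA3-like, -1.01 (-1.81 to -0.25) in CA2-like, -0.44 (-0.71 to -0.17) in dentate-granule-like and 0.27 (0.04 to 0.51) in superficial-layer-like nuclei, the last becoming -0.07 with each library clustered on its own. In CA1-like nuclei, with 462 and 486 UMIs, the UMIs per nucleus were 1.2 and 1.19, and in CA3-like nuclei, with 261 and 176, they were 1.32 and 0.983. CA1-like and CA3-like groups had 4.36% and 4.84% of genes lower and 3.08% and 3.69% higher past 1.5-fold.

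The highest excitatory *Cck* was in unnamed clusters. Cluster E20, led by *9630002D21Rik* and *Col5a2*, had 139 and 53.6 CPM (-1.37, -1.88 to -0.88), and E22, led by *Cpa6*, *Gpc5* and *Reln*, had 92.1 and 25.0 CPM (-1.88, -2.53 to -1.22). E22 had 15 PS19 and 51 PZKO nuclei. Across the named subtypes, which leave such clusters out, no gene followed *Cck* closely. The nearest were *4933405D12Rik*, *Gm49312* and *Sirt7* at r = 0.74, 0.72 and 0.71.

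*Penk* levels differed between excitatory groups. *Penk* in CA1-like nuclei was 9.27 and 5.58 CPM (-0.73, -1.18 to -0.28), from 56 of 386 and 64 of 410 nuclei with a UMI, at 0.231 and 0.20 UMIs per nucleus against a free RNA of 0.0330 and 0.0284. CA3-like nuclei, with 7 and 6 UMIs, did not stand above free RNA. In dentate-granule-like nuclei the 72 and 24 *Penk* UMIs were 0.0714 and 0.0472 per nucleus, little above it, and the log2 ratio was -1.13 (-1.86 to -0.45). In oligodendrocyte-like nuclei, the free RNA, *Penk* was also lower in PZKO, at 9.14 and 6.12 CPM (-0.58, -1.07 to -0.09). In superficial-layer-like nuclei the order was the reverse, with 9 UMIs in 194 PS19 nuclei and 72 UMIs in 375 PZKO nuclei (1.66, 0.66 to 2.85), where 5.0% of genes were higher and 4.59% lower past 1.5-fold. There 2 PZKO nuclei held 19 and 11 of the 72 UMIs. With each library clustered on its own the value was 0.21, and with no filter on nuclei 0.59. The highest excitatory *Penk* was in unnamed cluster E21, led by *Glra3* and *Npnt*, at 36.9 and 22.3 CPM (-0.73, -1.66 to 0.27). *Cp*, *A830012C17Rik* and *Qrfpr* were nearest to *Penk* in pattern (r = 0.95, 0.94 and 0.90).

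*Pdyn* in dentate-granule-like nuclei differed by 0.14 (-0.38 to 0.66), with 72 UMIs in 66 of 1008 PS19 nuclei and 58 UMIs in 40 of 509 PZKO nuclei, 12 of them in 1 nucleus. *Npy* in these nuclei was 4.45 and 7.71 CPM (0.79, 0.32 to 1.28), where 1.52% of genes were higher and 6.44% lower past 1.5-fold. In PS19 it was at 0.0675 UMIs per nucleus, the level of free RNA, and in PZKO 2 nuclei held 21 and 16 of 86 UMIs. The shares with a UMI were 6.25% and 7.27%, and without the 4 highest nuclei the ratio was -0.27. *Nts* in subiculum-like nuclei differed by -0.88 (-1.42 to -0.34), with 60 UMIs in 26 of 48 PS19 nuclei and 59 UMIs in 29 of 64 PZKO nuclei, in a group where 6.15% of genes were lower and 3.79% higher past 1.5-fold, and by -0.11 under a stricter filter on nuclei. Its nearest genes were the unnamed transcripts *Gm6260*, *Gm42707* and *Gm42705* (r = 0.94, 0.94 and 0.92), of which *Gm6260* is also a leading gene of that cluster. For *Sst* the nearest were *Gna14*, *Layn* and *Gm5535* (r = 0.93, 0.91 and 0.90), for *Tac2* *Vip*, *Gm39185* and *Dok7* (r = 0.98, 0.96 and 0.91), and for *Crh* *Stk32a*, *Fam111a* and *Pxdc1* (r = 0.89, 0.87 and 0.84). Points of 1 library share its depth, and these correlations are a description.

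The list of processing genes also holds genes that do not cut precursors, such as *Scg2*, *Chgb* and *Cadps*, described below. It was read in all inhibitory nuclei, which include the striatal- and thalamus-like ones, and in interneurons. In inhibitory nuclei all 13 had at least 50 UMIs, 8 with an interval below 0 and 4 above 0, where 22.0% and 15.4% of all genes were, and the median log2 ratio was -0.33 against -0.04 over 14308 genes. Intervals narrow as counts rise, so these shares also depend on the UMIs of the genes. *Pam*, with 7891 and 14087 UMIs, had an interval above 0 at a ratio of only 0.04. Among the enzymes of the list, *Pcsk2* was lower (-0.30, -0.35 to -0.25). *Cpe* and *Pam* had intervals above 0, and *Pcsk1* (0.17, -0.04 to 0.39) was within counting error. Past 1.5-fold 2 of the 13 were lower and 0 higher, where 6.81% and 2.85% of genes were. Genes spanning under 10 kb had a median of -0.27 in inhibitory nuclei, with 17.6% lower past 1.5-fold, and those over 100 kb had one of 0.11. The part of gene length in the values of the processing genes was not tested. In interneurons 8 of the 13 had an interval below 0 and 1 above, where 18.8% and 12.6% of all genes were. The median there was -0.31, against -0.05 over all genes. The lowest in inhibitory nuclei were *Scg2*, a granin that is itself cut into secretoneurin, at 113 and 65.2 CPM (-0.79, -0.90 to -0.68), *Pcsk1n*, which encodes an inhibitor of the convertase PC1, at 132 and 77.2 CPM (-0.77, -0.87 to -0.67), and *Chgb*, another granin (-0.49, -0.59 to -0.39). The highest were *Cpe*, the carboxypeptidase that trims the cut peptides (0.16, 0.09 to 0.23), *Scg5*, a chaperone of the convertase PC2 (0.13, 0.05 to 0.21), and *Cadps*, which primes dense-core vesicles (0.12, 0.10 to 0.15). In dentate-granule-like nuclei 5 of the 13 had an interval below 0 and 2 above, where 24.4% and 10.3% of all genes were, none passed 1.5-fold, and the median of -0.10 was near the -0.09 of all genes. *Pcsk1n* (-0.53, -0.66 to -0.41), *Chgb* (-0.29, -0.40 to -0.19) and *Pcsk2*, a convertase (-0.14, -0.18 to -0.09), were lowest there, and *Cadps* (0.16, 0.11 to 0.20), *Vgf* (0.47, 0.04 to 0.91) and *Pcsk1* (0.34, -0.52 to 1.2) highest.

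In inhibitory nuclei 18 of 24 receptor and binding-protein genes had at least 50 UMIs, 4 with an interval below 0 and 0 above, 2 were lower past 1.5-fold, and their median was -0.10. The 4 of 18 are close to the share of all genes given above. In interneurons 15 had at least 50 UMIs, 3 with an interval below 0 and 2 above, where 18.8% and 12.6% of all genes were. Of the 15, 1 was lower and 1 higher past 1.5-fold, and their median was 0.04, of the other sign. The lowest in inhibitory nuclei were *Crhbp*, which binds and sequesters *Crh* peptide, at 22.8 and 16.3 CPM (-0.49, -0.73 to -0.25), *Npy5r*, a receptor of neuropeptide Y (-0.59, -1.04 to -0.15), and *Oprk1*, the dynorphin receptor (-0.49, -0.88 to -0.10). The highest, *Ntsr1* (0.43, -0.48 to 1.41), *Crhr1* (0.16, -0.29 to 0.62) and *Crhr2* (0.12, -0.33 to 0.59), were within counting error. In dentate-granule-like nuclei 12 had at least 50 UMIs, none passed 1.5-fold, and 1 had an interval without 0, *Oprm1*, the µ-opioid receptor, at 26.4 and 18.7 CPM (-0.50, -0.75 to -0.25). *Sstr1* (-0.35, -1.14 to 0.41) and *Ntsr2* (-0.28, -0.61 to 0.05) were next, and *Sstr2* (0.23, -0.20 to 0.67), *Vipr1* (0.18, -0.06 to 0.42) and *Npy2r* (0.12, -0.16 to 0.40) highest.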

How the data were processed

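Nuclei of 1 PS19 and 1 PZKO library were sequenced with 10x Genomics 3′ chemistry. The authors deposited UMI counts per gene and nucleus as whole numbers, aligned to mm10 with no normalization; the submitters' processing notes name Cell Ranger 7.0.1, and the matrix headers 8.0.1. The labels call the hippocampi pooled, whereas the protocol has animals processed separately. The ambient-RNA correction and doublet removal described in the study's methods are not part of these counts.

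Nuclei with at least 600 UMIs, 300 genes and at most 5% mitochondrial UMIs were kept, and the highest Scrublet scores were removed at 0.8% per 1000 nuclei (876 and 821 nuclei). Both libraries were clustered together (scanpy 1.11.5, leidenalg 0.10.2; 2000 variable genes without the members, 30 components, 20 neighbours, resolution 1) and neurons were clustered again. Clusters were named from marker lists with at least 3 markers, by thresholds set after the clusters had been seen. The neuropeptides and gene lists were chosen with earlier results of these data known. UMIs were summed per group and library and scaled to CPM. Levels have exact Poisson, shares exact binomial (Clopper-Pearson) and log2 ratios exact conditional binomial 95% intervals, and none of them covers more than counting error. Because each genotype is a single library, the genotypes were not tested against each other. Scripts were tested on simulated data.

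Named were the 10 members, *Zbp1*, for each member the 3 genes with the highest r of pattern among those with at least 300 UMIs, and the 3 highest and 3 lowest ratios of the processing and receptor lists (ordered by whichever interval bound lies closer to 0) besides genes that mark a cluster. The r of pattern was taken over named subtypes with at least 20 nuclei in each library, so unnamed clusters took no part. *Crhr2* in interneurons and results of single clusters were chosen after their values were seen. Factors from edgeR 4.0.16 (TMM) and DESeq2 1.42.0 served only as other scalings.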

Additional observations from a re-analysis of the deposited data

Results flagged for a closer look

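*Cck*, *Npy* and *Penk* had ratios of opposite sign in different neurons, each with an interval on its own side of 0. *Cck* was lower in PZKO in CA2-like nuclei, with a log2 ratio of -1.01 (-1.81 to -0.25), and higher in superficial-layer-like nuclei, at 0.27 (0.04 to 0.51). *Npy* was lower in neurogliaform- or ivy-like nuclei, at -1.74 (-2.04 to -1.45), and higher in dentate-granule-like nuclei, at 0.79 (0.32 to 1.28). *Penk* was lower in dentate-granule-like nuclei, at -1.13 (-1.86 to -0.45), and higher in superficial-layer-like nuclei, at 1.66 (0.66 to 2.85). With 1 library per genotype, the difference between the groups of neurons was not tested. Without the 4 highest nuclei of each library *Npy* was at -0.37 and -0.27, so that the opposite signs were lost. The 4 nuclei were picked by their *Npy* UMIs. They are a larger part of 509 PZKO than of 1008 PS19 dentate-granule-like nuclei. With each library clustered on its own, *Cck* in superficial-layer-like nuclei was at -0.070, so that its opposite signs were lost too, and *Penk* there was at 0.21. *Penk* was little above free RNA in dentate-granule-like nuclei and in PS19 superficial-layer-like nuclei. The free RNA of *Penk*, read in oligodendrocyte-like nuclei, was itself lower in PZKO, at 9.14 and 6.12 CPM (-0.58, -1.07 to -0.09).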

How the results depend on the processing

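Of 139 alternatives to the 10 log2 ratios over interneurons and excitatory neurons, 118 stayed within the counting interval of the value given above, 19 moved outside it and 2 crossed 0 from an interval that did not include it. The sign differed in 5 of the 139. Of 283 alternatives to 21 ratios by subtype, 252 stayed, 24 moved and 7 crossed 0 in that way, and the sign differed in 12. In interneurons, scaling to genes under 10 kb, added after seeing the data, gave -0.078 for *Sst*, -0.11 for *Vip*, -1.04 for *Npy* and 0.067 for *Cck*, and in excitatory neurons 0.015 for *Cck*. It also gave 0.025 for *Tac1* and 0.058 for *Tac2* in interneurons and 0.090 for *Tac1* in parvalbumin-like nuclei, whose intervals all include 0. The stricter filter kept nuclei with at least 1000 UMIs, 500 genes and at most 1% mitochondrial UMIs. Clusters were made and named again under it, so its groups need not hold the same nuclei. It gave -0.15 for *Sst*, -0.84 for *Vip*, -0.58 for *Npy*, -0.0071 for *Cck*, 3.45 for *Pdyn* and -0.82 for *Tac2* in interneurons, and -0.17 for *Cck* in excitatory neurons. Leaving out the 4 highest nuclei of each library, also added after seeing the data, gave -0.78 for *Npy*, 3.93 for *Pdyn* and 0.33 for *Tac2* in interneurons. A resolution of 2 gave -0.67 for *Vip* and -0.79 for *Tac2*. Subtracting the oligodendrocyte CPM gave -1.58 for *Npy* and -1.82 for *Crh*, the mean over nuclei -1.19 for *Npy*, and DESeq2 size factors -0.23 for *Cck* in excitatory neurons. By subtype the ratio crossed 0 from an interval without it for *Crh* in somatostatin-like nuclei (0.23), *Tac2* in VIP-like nuclei (0.10) and *Npy* in dentate-granule-like nuclei (-0.27) without the 4 highest nuclei, for *Npy* in somatostatin-like nuclei with doublets kept (0.042), for *Tac2* in VIP-like nuclei under the stricter filter (0.70) and with each library clustered on its own (0.45), and for *Cck* in superficial-layer-like nuclei in the latter (-0.070). *Pdyn* in dentate-granule-like nuclei, whose interval includes 0, was below 0 in 4 of 14 alternatives, down to -0.19. The cause was not tested. Subtracting oligodendrocyte CPM gave no value where that CPM was higher than the neurons', as for *Cck* in excitatory neurons. With a pseudocount of 1 CPM, 17 of the 30 genes of like pattern were named again. No paired analysis was possible because each genotype is 1 library. Depth limits *Nts* and *Pdyn* in interneurons most, with 2 and 13 UMIs in PS19.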
